A study of Mus musculus with 3 samples.

Results

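A set of 2974 macrophages was defined by the transcripts of Il1a, Slc7a11 and Ccrl2 among 35247 cells of regenerating mouse muscle that passed quality filters. They made up 14.9% of the 19974 cells in the macrophage gate and 8.44% of all cells kept. Members were chosen on measured unique molecular identifier (UMI) counts, each UMI standing for 1 captured transcript molecule. A cell entered the macrophage gate with at least 3 UMIs over Adgre1, Csf1r and Fcgr1 and with none of Pdgfra, Cd209a or Cd3e. Cells with 5 or more Ly6c2 UMIs, 3 or more over Cd163, Lyve1 and Cbr2, 2 or more over Atp6v0d2 and Rnf128, or 5 or more over Mki67, Top2a, Cdk1, Birc5 and Cenpf were then set aside. The 8486 cells left are called eligible here, and those with at least 4 UMIs over Il1a, Slc7a11 and Ccrl2 are the members.

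The cells came from tibialis anterior muscle taken on day 4 after injury with barium chloride, a toxin that destroys muscle fibres and starts regeneration. Young PBS mice were 3 to 4 months old and old PBS mice 24 to 26 months old, and their muscles received vehicle. Old rMETRNL mice, also 24 to 26 months old, received 0.1 µg recombinant meteorin-like (METRNL), a protein secreted by macrophages and muscle, in consecutive intramuscular injections. Each group is 1 library of dissociated cells pooled from 3 mice, so no test between groups was possible, each interval covers counting error only, and a difference between groups cannot be told apart from a difference between libraries. The libraries held 12168 to 14012 barcodes and 179295668 to 228966697 UMIs, pairs of libraries had 58 to 80 barcodes in common, and 1 barcode was a member in a pair of libraries. Where 3 values stand in a row, their order is young PBS, old PBS, old rMETRNL.

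Macrophages that enter injured muscle clear debris, release cytokines that shape the progenitor cells around them, and later turn to support growth of new fibres. Il1a encodes interleukin 1 alpha, a cytokine that works as an alarm signal when cells are stressed or die. Slc7a11 encodes the transport subunit of the cystine/glutamate exchanger, which feeds glutathione synthesis and is a known target of the oxidative stress factor NRF2 (encoded by Nfe2l2) and of the amino acid stress factor ATF4. Ccrl2 encodes an atypical chemoattractant receptor that binds chemerin without signalling like a classical chemokine receptor, and it is induced by inflammatory stimuli in myeloid cells. Of the remaining label genes, Gdf15 encodes a stress-induced secreted factor of the TGF-beta superfamily and Spic a transcription factor known from haem-recycling macrophages of the spleen.

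The promoters of the 3 genes that defined the cells are shown because they differ in the letters to which stress factors are known to bind. Each window is the 250 bases before an annotated transcript start in RefSeq (GRCm38.p6), read in the direction of the gene, with capitals on matches to the antioxidant response core TGANNNNGC (other strand GCNNNNTCA) or the ATF4-type response core TGATGNAA (other strand TTNCATCA). Slc7a11 lies at chr3:50443614-50443863 on the minus strand, Ccrl2 at chr9:111057519-111057768 on the minus strand (window 1 of its 3), and Il1a at chr2:129309973-129310222 on the minus strand.
Slc7a11: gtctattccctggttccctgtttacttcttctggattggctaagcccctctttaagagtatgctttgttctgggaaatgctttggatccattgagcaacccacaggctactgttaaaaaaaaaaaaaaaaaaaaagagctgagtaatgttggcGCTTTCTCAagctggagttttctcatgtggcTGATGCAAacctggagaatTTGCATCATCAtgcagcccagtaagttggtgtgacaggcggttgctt
Ccrl2: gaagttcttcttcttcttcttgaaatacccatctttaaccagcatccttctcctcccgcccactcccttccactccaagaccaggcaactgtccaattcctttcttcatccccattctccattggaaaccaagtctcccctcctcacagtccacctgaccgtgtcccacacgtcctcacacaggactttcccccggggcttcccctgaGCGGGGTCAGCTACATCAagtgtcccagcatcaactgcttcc
Il1a: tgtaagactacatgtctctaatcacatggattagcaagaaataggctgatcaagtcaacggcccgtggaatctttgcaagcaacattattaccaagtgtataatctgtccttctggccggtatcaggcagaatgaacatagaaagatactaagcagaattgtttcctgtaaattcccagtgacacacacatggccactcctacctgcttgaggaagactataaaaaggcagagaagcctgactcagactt
The Slc7a11 window held 2 matches of each core on both strands together, and the ATF4-type match at bases -47 to -40 overlapped the antioxidant match at -45 to -37. The Ccrl2 window held 2 adjacent antioxidant matches, from -42 to -34 and from -33 to -25, and its other windows held none. The Il1a window held no match, nor did those of Gdf15 and Spic. Of 32851 RefSeq promoter windows of this length, 35.2% held the antioxidant core and 3.45% the ATF4-type core, so that the first in particular is common, and a match describes letters and not a bound site.

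Ccrl2 transcripts supplied most of the UMIs that made a cell a member. UMI counts are not scaled to transcript length, so the shares are of molecules captured. Of the UMIs of the 3 genes in members, 86.5%, 71.3% and 80.4% were Ccrl2. A Ccrl2 UMI was present in 98.4%, 95.9% and 97.6% of members. Slc7a11 was detected in 32.9%, 56.5% and 37.5%, and Il1a in 21.9%, 31.4% and 28.1%. All 3 genes were detected together in 92 (8.68%), 174 (16.1%) and 86 (10.4%) members, most often in old PBS. Cells with UMIs of only 1 of the genes were 588, 350 and 392. The label therefore describes a sum led by Ccrl2 rather than cells positive for each gene, and 930, 820 and 685 members would have been chosen by Ccrl2 alone.

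The rule drew its line through a continuous distribution. The median sum was 8 UMIs in each library and the highest 75, 107 and 62. Just inside the line, 158, 155 and 143 cells had a sum of exactly 4. Just outside it, 194, 206 and 168 eligible cells had a sum of 3. Sums of 0 were found in 1195, 742 and 876 eligible cells. The median UMI total of members was 14882.5, 14759.5 and 14684, that of the other gated cells 14510, 15547 and 15051.5, and that of eligible cells with a lower sum 12676.5, 10676.5 and 11608, so members were deeper than the eligible cells they are compared with. Members' median mitochondrial share was 2.85%, 3.34% and 2.88%, close to that of the other gated cells (2.95%, 3.45% and 2.97%).

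A sum of 4 UMIs over the 3 genes was far rarer in the stromal, endothelial and T cells counted than in gated macrophages. Dendritic cells and neutrophils were not counted. Fibro-adipogenic progenitors (FAPs), the Pdgfra-positive stromal cells of muscle, reached a sum of 4 in 1.12%, 0.797% and 1.05% of their cells, at median UMI totals of 26304, 23583 and 25835. Gated macrophages, before any were set aside, reached it in 32.9%, 45.9% and 31.2% at 14584, 15273 and 14991.5 UMIs. The share in the deeper FAPs, which takes in free RNA of the droplets, was thus much lower. Endothelial cells reached it in 1.01%, 0.923% and 0.759%, and T cells in 0 of 58, 2 of 91 and 0 of 38. A Ccrl2 UMI alone was less particular, with 18.7%, 10.7% and 15.1% of endothelial cells at 12193.5, 4999.5 and 8925.5 UMIs and 14 of 58, 11 of 91 and 3 of 38 T cells at 5446.5, 6349 and 5532 UMIs. With every cell thinned to 5000 UMIs, Ccrl2 was detected in 87.6%, 82.8% and 85.0% of members and in 2.66%, 2.32% and 1.94% of FAPs. Slc7a11 was detected in 18.0%, 39.3% and 20.8% of thinned members against 1.02%, 1.63% and 1.26% of FAPs, and Il1a in 11.6%, 17.0% and 15.1% against 0.102%, 0.232% and 0.0968%. The rule chose the members on these 3 genes, so their shares are a description only. In the other gated cells, thinned alike, Ccrl2 was detected in 32.0%, 41.7% and 33.2%. Slc7a11 was detected in 6.04%, 15.7% and 6.07% of them, and Il1a in 3.73%, 7.99% and 4.99%.

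Members were a smaller share of the macrophage gate in old rMETRNL than in both PBS libraries. They were 1060 of 6657 gated cells in young PBS, or 15.9% (95% Clopper-Pearson interval 15.1 to 16.8). In old PBS they were 1084 of 6219, or 17.4% (16.5 to 18.4). In old rMETRNL they were 830 of 7098, or 11.7% (10.95 to 12.5). The intervals of young and old PBS overlap and that of old rMETRNL lies below both. The share in old rMETRNL was 0.671 times that in old PBS (0.612 to 0.735), and that in old PBS was 1.09 times that in young PBS (1.005 to 1.19). With 2 of the 3 genes required in each member, the shares were 7.09%, 11.8% and 6.171%, and the age ratio was 1.665. The age and treatment ratios have the old PBS library in common.

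Whether old rMETRNL stood below young PBS depended on the denominator, while old PBS had the highest share under each one. Of all cells kept, the age ratio was 1.05, with an interval that includes 1 (0.968 to 1.149), and the treatment ratio 0.662 (0.604 to 0.726). Among eligible cells, members were 32.2% (30.6 to 33.8), 41.2% (39.3 to 43.1) and 32.4% (30.6 to 34.3), so that old PBS was high, and old rMETRNL over young PBS was 1.01 (0.919 to 1.11). Without the 4 exclusions, gated cells with a sum of at least 4 were 32.9%, 45.9% and 31.2%, with old PBS over young PBS at 1.40 (1.32 to 1.48) and old rMETRNL over old PBS at 0.679 (0.642 to 0.718). The exclusions removed 51.5%, 62.0% and 62.5% of such cells. The classes set aside themselves differed in size between libraries. Cells with Atp6v0d2 and Rnf128 UMIs, a lysosomal proton pump subunit and a ubiquitin ligase, were 14.05%, 31.5% and 23.3% of the gate and took 415, 1215 and 721 of the cells with a high sum. Ly6c2-high cells, as in inflammatory monocytes, were 16.5%, 8.92% and 15.7%, and cells with UMIs of the resident macrophage genes Cd163, Lyve1 and Cbr2 were 21.2%, 23.4% and 32.6%. The 3 genes were thus not limited to the members: Slc7a11 in Ly6c2-high cells stood at 28.0, 69.1 and 24.9 CPM (counts of a gene scaled to a fixed total of UMIs), and in Atp6v0d2 and Rnf128 cells at 31.9, 71.8 and 31.5 CPM.

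**Figure D1:**
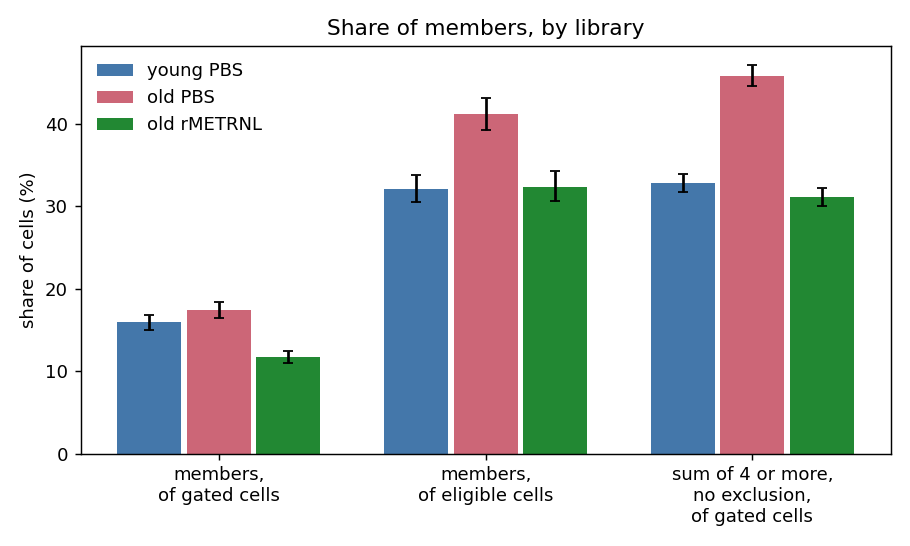
Bars give members as a percentage of all gated macrophages and of eligible cells, and gated cells with a sum of at least 4 before the exclusions (members and others) as a percentage of the gate, in young PBS, old PBS and old rMETRNL (1 library each). Error bars are 95% Clopper-Pearson intervals of counting error. Old rMETRNL is lowest of the gate at 11.7%, whereas old PBS is highest of the eligible cells at 41.2%.

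Levels are given as CPM, the UMIs of a gene summed over a set of cells of 1 library and scaled to the same total of UMIs for every set. In bulk sums of this kind, more cells with a transcript and more transcript per cell cannot be told apart. The 3 defining genes are described only, since the rule chose the cells on them. Ccrl2 (ENSMUSG00000043953, chr9:111054486-111057519, minus strand, GRCm38) stood at 614, 559 and 517 CPM in members and at 142, 222 and 136 CPM in the other gated cells. Slc7a11 (ENSMUSG00000027737, chr3:49892526-50443614, minus strand) stood at 64.5, 165 and 79.8 CPM in members and 18.4, 56.8 and 20.2 in the others. Il1a (ENSMUSG00000027399, chr2:129299610-129309972, minus strand) stood at 31.2, 59.5 and 46.5 CPM in members and 9.56, 21.5 and 13.4 in the others. Old PBS was the highest library for Slc7a11 and Il1a in members and other cells alike, while for Ccrl2 it was the highest only in the other cells. With 2 of the 3 genes required in each member, Il1a was higher in old rMETRNL than in old PBS, by 0.090 on the log2 scale.

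The remaining label genes, which the rule did not use, also stood higher in members. Gdf15 was widely present in the other gated cells, and Spic was detected in a smaller share of them. Gdf15 (ENSMUSG00000038508, chr8:70629393-70632456, minus strand) was at 1040, 750 and 938 CPM in members, against 425, 480 and 516 in the other gated cells, ratios of 2.45 (2.40 to 2.49), 1.56 (1.53 to 1.59) and 1.82 (1.78 to 1.85). Spic (ENSMUSG00000004359, chr10:88674772-88685015, minus strand) was at 48.1, 50.9 and 35.5 CPM against 27.8, 20.5 and 15.1, ratios of 1.73 (1.60 to 1.87), 2.49 (2.29 to 2.70) and 2.35 (2.11 to 2.60). Neither gene reached 2-fold in every library. After thinning to 5000 UMIs, Gdf15 was detected in 64.1%, 59.3% and 59.3% of members and in 44.6%, 49.8% and 48.4% of the other gated cells, while FAPs gave 4.90%, 2.44% and 4.84%. Spic was detected in 13.01%, 15.7% and 10.9% of thinned members, against 10.4%, 7.68% and 5.97% of the others. In FAPs it was detected in 1 of 979, 1 of 861 and 0 of 1033 thinned cells. For the last, 3 counts would be a share of cells with a UMI of 0.290%, and the Clopper-Pearson interval reaches 0.356%.

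Il1b, Nlrp3 and Ptgs2 were among the genes that stood higher in members and that the rule did not use. Of 11204 genes with at least 500 UMIs over the gate, 20 were at least 2-fold higher in members than in other gated cells in each of the 3 libraries (0.179%) and 268 at least 2-fold lower (2.39%). The contrast is the rule's own, so these counts describe the cells and test nothing. The median gene had a ratio of 0.895, 0.928 and 0.906. Il1b, the secreted partner cytokine of Il1a, stood at 802, 1046 and 821 CPM in members and at 360, 373 and 307 in the others. The others are a mixture. In young PBS, Il1b stood at 706 CPM in Ly6c2-high cells and at 197 in cells set aside for Cd163, Lyve1 and Cbr2. Nlrp3, the sensor of the inflammasome that processes interleukin 1 beta, stood at 217, 306 and 187 CPM against 91.7, 148 and 86.2. Ptgs2, the inducible cyclooxygenase of prostaglandin synthesis, stood at 132, 160 and 114 CPM against 58.9, 57.2 and 43.9. Taken over all other gated cells together, all 3 were lower in each library than in the members of any library.

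The rest of the 20 had mixed roles. Cd14, the lipopolysaccharide co-receptor, was at 1198, 1725 and 1042 CPM in members and 584, 844 and 497 in the other gated cells. Vcam1, an adhesion molecule that binds integrins, was at 144, 141 and 133 CPM against 55.3, 58.9 and 46.6. Dnase1l3, a secreted nuclease that digests DNA in extracellular vesicles, was at 138, 102 and 146 CPM against 56.5, 32.6 and 34.9, the largest ratio among these genes in old rMETRNL (4.19). The ratios of Bcl2a1d, an inhibitor of apoptosis, were 2.76, 2.53 and 2.57. Those of Bcl2a1a were 2.50, 3.31 and 3.44, but the Bcl2a1 genes are near-identical copies and reads may be split between them. Gpr84, a receptor for medium-chain fatty acids, had ratios of 2.48, 2.89 and 2.54, and Gpr132, a receptor for lactate and oxidised lipids, of 2.19, 2.23 and 2.20. Ligands of the epidermal growth factor family were among the 20 as well. Nrg1 stood at 20.02, 16.8 and 9.02 CPM against 6.04, 7.51 and 3.91, while Areg stood at 15.6, 13.6 and 19.97 CPM against 7.44, 4.68 and 5.75, with 41.4%, 44.2% and 64.1% of its UMIs in the 5 leading cells. Arl5c, Pxdc1, Stat4, Spns3, Ocstamp and Cxcl3 were also among them, Cxcl3 with 36.0% to 46.2% of its UMIs in 5 cells.

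Mir155hg, the host transcript of the inflammation-linked microRNA miR-155, was at 30.2, 33.9 and 29.2 CPM in members against 12.1, 13.4 and 11.8 in the other gated cells. The gene (ENSMUSG00000097418) lies at chr16:84703167-84715245 on the plus strand (GRCm38), and the arm usually active is encoded at chr16:84714143-84714165. Its mature sequence in RefSeq is shown, with the seed at bases 2 to 8 in capitals, because it is the regulatory product of this transcript.
mmu-miR-155-5p: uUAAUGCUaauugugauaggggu
The mature microRNA was not measured by these libraries. With cells thinned to 5000 UMIs, a Mir155hg UMI was found in 13.3%, 12.8% and 11.8% of members and in 5.67%, 6.17% and 5.41% of other gated cells. FAPs gave 4.60%, 6.39% and 4.84%, close to the other gated cells and below the members. Il1b, at a far higher level in macrophages, was found in 2.35%, 3.25% and 2.13% of the same FAPs. The part of free RNA in these shares was not tested.

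The genes with the lowest ratios in members were those of the cells that the rule set aside. Of the 15 with the lowest ratios, 13 belong to cell division, among them Kif14, Nusap1, Plk1, Ccna2 and Aspm, and cycling cells were excluded. Cd209f and Cd209g, lectins of resident macrophages that go with the excluded Cd163, Lyve1 and Cbr2, were the others, at no more than 0.308 CPM in members.

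**Figure D2:**
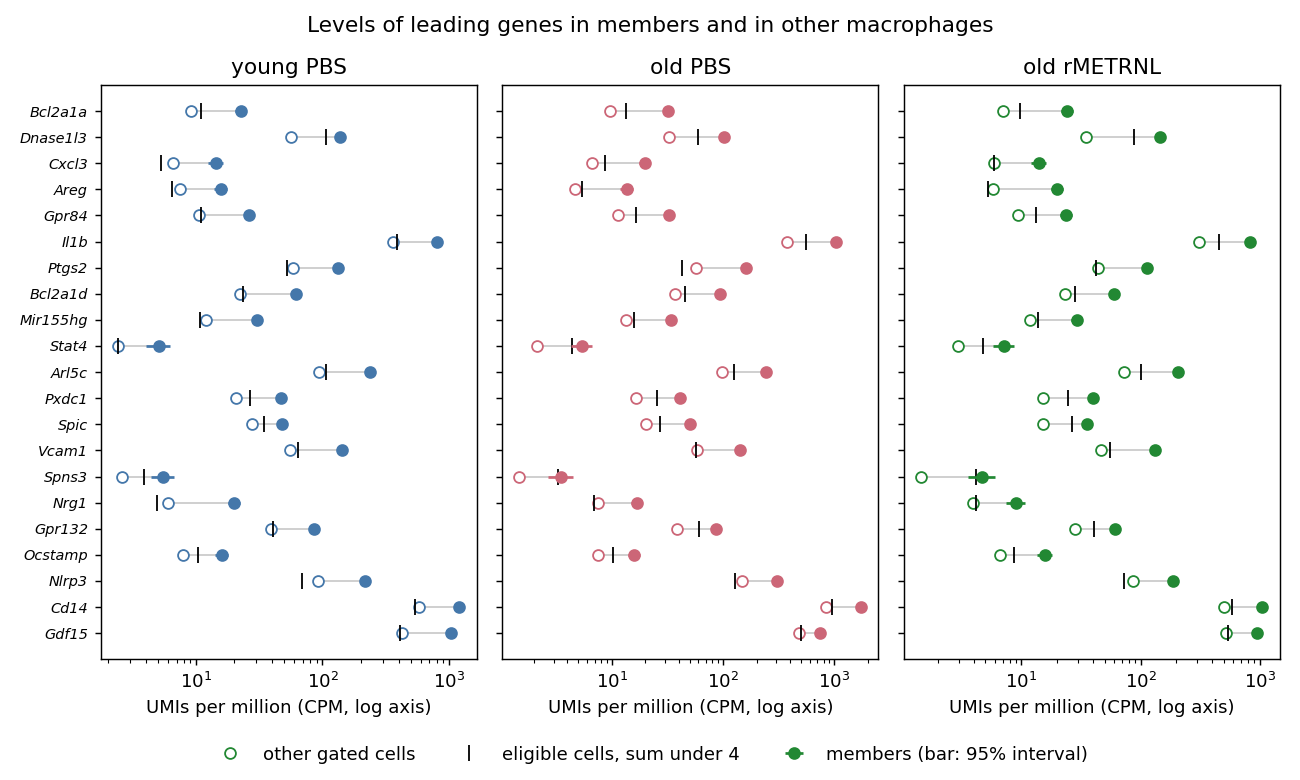
The level (CPM, log axis) of 19 of the 20 genes with the highest ratios in members, and of Gdf15 and Spic, is plotted for members (filled points with 95% Poisson intervals), other gated cells (open points) and eligible cells with a sum under 4 (ticks), by library. Il1b members lie at 802 to 1046 CPM and the other gated cells at 307 to 373, while the Gdf15 gap is smallest in old PBS (750 and 480 CPM).

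Against eligible cells, which passed the same exclusions but had a lower sum, fewer genes were set apart. The number at least 2-fold higher in each library was 17 (0.152%) and at least 2-fold lower 23 (0.205%). Dnase1l3 then had ratios of 1.28, 1.69 and 1.67, and Nusap1, of the mitotic spindle, had ratios of 0.814, 0.774 and 0.697. The genes described next were picked after their values were seen. Clec4e, the receptor Mincle for dead cells and mycobacterial lipid, was at 159, 241 and 175 CPM, with ratios of 2.97, 2.17 and 2.13 over eligible cells. Cxcl1, a neutrophil attractant, was at 187, 204 and 215 CPM (2.64, 2.89 and 2.66), and Acod1, the enzyme that makes itaconate, at 29.1, 29.6 and 29.3 CPM (4.34, 2.15 and 2.60). Csf3, the granulocyte growth factor, had ratios of 4.17, 3.01 and 3.11, with at least 40.9% of its UMIs in 5 cells. Txnip, which binds and restrains thioredoxin, was low in members, at 43.8, 23.4 and 35.3 CPM (0.248, 0.223 and 0.303 of the eligible level). Hes1, a target of Notch signalling, had ratios of 0.295, 0.301 and 0.414, and Sesn1, a stress-induced sestrin, of 0.328, 0.360 and 0.403.

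The position of the oxidative stress genes, among which Slc7a11 is counted, depended on the cells compared. Of 25 NRF2-linked antioxidant genes with enough UMIs, Slc7a11 left out, none was called higher than in other gated cells, 5 had ratios above 1 in every library and 14 below 1. Over all genes tested, 2072 had ratios above 1 in every library and 5890 below 1. The list's median ratio was 0.905, 0.927 and 0.907, beside 0.895, 0.928 and 0.906 for all genes. Against eligible cells 13 of the 25 were above 1 in every library and 2 below 1, beside 2110 and 4334 of all genes, and the median was 1.02, 1.08 and 1.03, where all genes had 0.940, 0.963 and 0.964. Nfe2l2, the gene of NRF2 itself, stood at 779, 890 and 796 CPM in members and 405, 548 and 432 in the other gated cells. Txnrd1, thioredoxin reductase, stood at 201, 329 and 206 CPM against 119, 209 and 132, and Sqstm1, the autophagy receptor p62, had ratios of 1.496, 1.35 and 1.51. Members thus stood above the others in these genes in every library, while other members of the list lay below. Hmox1, haem oxygenase, was at 411, 315 and 311 CPM against 524, 395 and 476, and the peroxiredoxin Prdx1 had ratios of 0.762, 0.773 and 0.708. Gclc and Gclm, the subunits of the enzyme that begins glutathione synthesis, had ratios between 0.834 and 1.07.

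The ATF4 and haem lists are described beside all genes tested, of which 2072 of 11204 were above 1 and 5890 below 1 in every library. Of 24 ATF4 and integrated stress genes, none was called, 7 were above 1 and 13 below 1 in every library (median 0.918, 0.919 and 0.883). Slc3a2, the heavy chain that pairs with Slc7a11 to form the exchanger, stood at 545, 586 and 481 CPM against 362, 456 and 361. Atf4 itself had ratios of 0.990, 0.920 and 0.907, and the serine synthesis enzyme Psat1 of 0.509, 0.516 and 0.478. Of 25 haem and iron genes, 5 were above 1 and 14 below 1, with a median of 0.945, 0.872 and 0.859, beside the higher level of Spic. Against eligible cells 10 of the 25 were above 1 and 4 below 1, beside 2110 and 4334 of all genes. The median was then 1.12, 0.992 and 0.990. Slc40a1, the iron exporter ferroportin, had ratios of 0.944, 0.886 and 1.23, and Blvrb, biliverdin reductase, of 0.876, 0.787 and 0.794.

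Most genes of the NF-kB and inflammatory list had ratios above 1 in members. Of 36 genes besides Ccrl2, 31 had ratios above 1 in every library and 1 below 1, beside 2072 and 5890 of all 11204 genes. The list's median ratio was 1.64, 1.57 and 1.58 over the other gated cells and 1.805, 1.34 and 1.56 over eligible cells, and 3 of its genes were called higher, Ptgs2, Nlrp3 and Cd14, beside 0.179% of all genes. Tnf, whose protein is a main inflammatory signal to muscle stroma, stood at 223, 223 and 184 CPM against 131, 141 and 134, and cells set aside for Cd163, Lyve1 and Cbr2 were near the members, at 209, 204 and 176 CPM. Nfkbia and Tnfaip3, feedback inhibitors of NF-kB, had ratios of 1.78, 1.53 and 1.65 and of 1.99, 1.68 and 1.79. The exception below 1 was Tlr4, the lipopolysaccharide receptor, at 0.778, 0.721 and 0.672. Of 21 interleukin 1 family genes besides Il1a, 10 were above 1 and 4 below 1, and the antagonist Il1rn stood at 511, 664 and 502 CPM against 265, 447 and 293. Il10, an anti-inflammatory cytokine of the repair list, stood at 150, 163 and 117 CPM against 72.7, 82.1 and 65.7, although 9 of the 21 genes of that list were below 1 and 7 above.

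Chemokine ligands lay on both sides of 1. Of 22 ligand genes, 10 were above 1 and 10 below 1 in every library, beside 2072 and 5890 of all 11204 genes. Cxcl2, which attracts neutrophils, stood at 2584, 3048 and 2538 CPM against 1373, 1740 and 1668, and Cxcl16 had ratios of 1.78, 1.66 and 1.96. Ccl2, Ccl7 and Ccl8, which attract monocytes, lay below the other gated cells, with Ccl8 at 0.552, 0.503 and 0.472 and Ccl2 at 0.641, 0.697 and 0.429. Against eligible cells Ccl2 had ratios of 1.28, 0.851 and 0.723, so its position depended on the cells compared and on the library. Of 14 chemokine receptor genes besides Ccrl2, 7 were above 1 and 3 below 1, beside the same counts of all genes.

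Medians of the MHC class II and lipid-associated lists lay away from 1 over the gate and near 1 over eligible cells. All 8 MHC class II genes tested had ratios above 1 in every library, with a median of 1.45, 1.69 and 1.87, and Cd74, the invariant chain, stood at 6682, 8920 and 6472 CPM against 4335, 4884 and 3255. Within the gate, Ly6c2-high cells had more Cd74 than members, at 8524, 9330 and 7215 CPM. Over eligible cells the median was 1.02, 0.936 and 1.01. Of 25 genes of lipid-associated macrophages, 3 were above 1 and 18 below 1 (median 0.830, 0.710 and 0.777), beside 2072 and 5890 of all 11204 genes. Over eligible cells the median of the lipid-associated list was 1.04, 1.06 and 1.03. Spp1, osteopontin, had ratios of 0.641, 0.445 and 0.603 over the gate and 1.003, 1.02 and 1.03 over eligible cells. Cd36, a scavenger receptor for lipid, stood at 210, 214 and 236 CPM against 461, 708 and 621. Apoe, the lipoprotein of resting and lipid-handling macrophages, went the other way, at 34681, 32521 and 33024 CPM against 22834, 21811 and 19809.

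The other lists are given by their genes above and below 1 in every library. Over all 11204 genes tested, these were 2072 and 5890, so most genes lay below 1. They were 18 and 4 of 29 macrophage transcription factors, where Runx3 had ratios of 1.85, 2.06 and 2.41. They were 16 and 5 of 29 growth factors, 19 and 5 of 32 immediate early and dissociation genes, and 16 and 11 of 30 cell death genes. For repair genes they were 7 and 9 of 21, for phagocytosis 5 and 9 of 19, and for matrix proteases 6 and 6 of 21. Hypoxia and glycolysis had 7 and 20 of 31 (median 0.798, 0.895 and 0.863), monocyte genes 2 and 9 of 17 (0.649, 0.962 and 0.901) and interferon-stimulated genes 14 and 3 of 25. Over eligible cells the interferon-stimulated genes went the other way, with 4 above 1 and 12 below 1 (median 0.938, 0.934 and 0.940). All genes had 2110 and 4334 in that comparison. Ly6c2-high cells, as in inflammatory monocytes, had been set aside by the rule. The dissociation list holds genes that enzymatic digestion of tissue can induce, and its median ratio was 1.08, 1.12 and 1.08 over the gate and 1.05, 0.817 and 0.926 over eligible cells. Its part in the results was not tested.

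**Figure D3:**
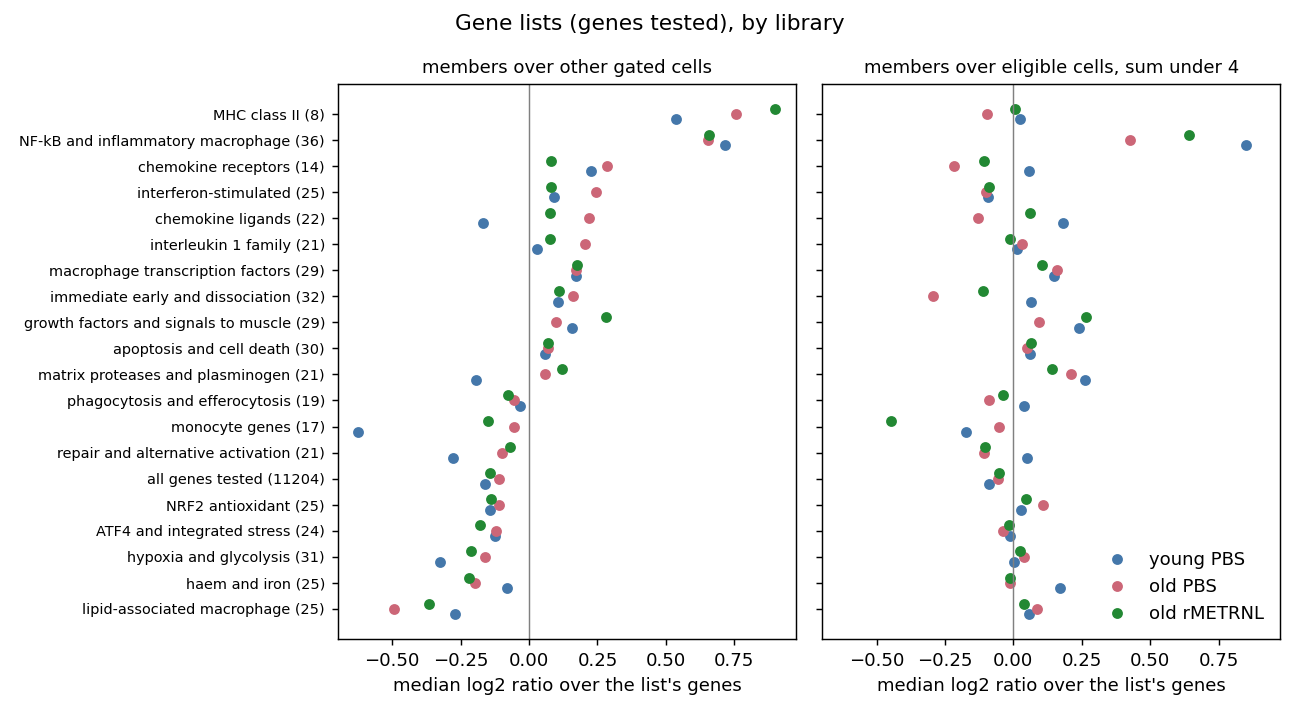
Each point is the median over a list's tested genes of the log2 CPM ratio in 1 library, with members set against other gated cells and against eligible cells with a sum under 4. The NF-kB list lies above 0 in both panels, the MHC class II list lies well above 0 in the first and between -0.10 and 0.03 in the second, and the NRF2 list lies between -0.14 and 0.11 throughout.

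Along the sum of the 3 genes, several inflammatory genes were higher at the top of the range than at its foot, though not at each step. Nlrp3 in young PBS eligible cells was at 39.8, 69.6, 109 and 156 CPM at sums of 0, 1, 2 and 3, and at 198, 190 and 244 CPM at 4 to 5, 6 to 9 and 10 or more. Over the same range it went from 84.3 to 334 CPM in old PBS, and from 49.7 to 232 CPM with rMETRNL. Nfe2l2 went from 287 to 891, 465 to 1038 and 388 to 922 CPM, and Txnrd1 from 62.3 to 226, 151 to 360 and 89.2 to 247 CPM. Gdf15 ran from 315 to 1151, 412 to 911 and 417 to 1154 CPM, with a dip within the range in each library. Il1b likewise fell back within the range, from 671 CPM at a sum of 3 to 595 at 4 to 5 in old rMETRNL, and from 941 at 4 to 5 to 876 at 6 to 9 in old PBS. The cells' median UMI total went up alongside, from 11854 to 15819, 9377.5 to 15860 and 10745 to 15349, and its part was not tested. Cd74 and Hmox1 did not follow in every library. Cd74 stood at 6415 CPM at a sum of 0 and 6473 at 10 or more in young PBS, and Hmox1 at 312 and 354. In old PBS Hmox1 stood at 421 and 302 CPM.

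**Figure D4:**
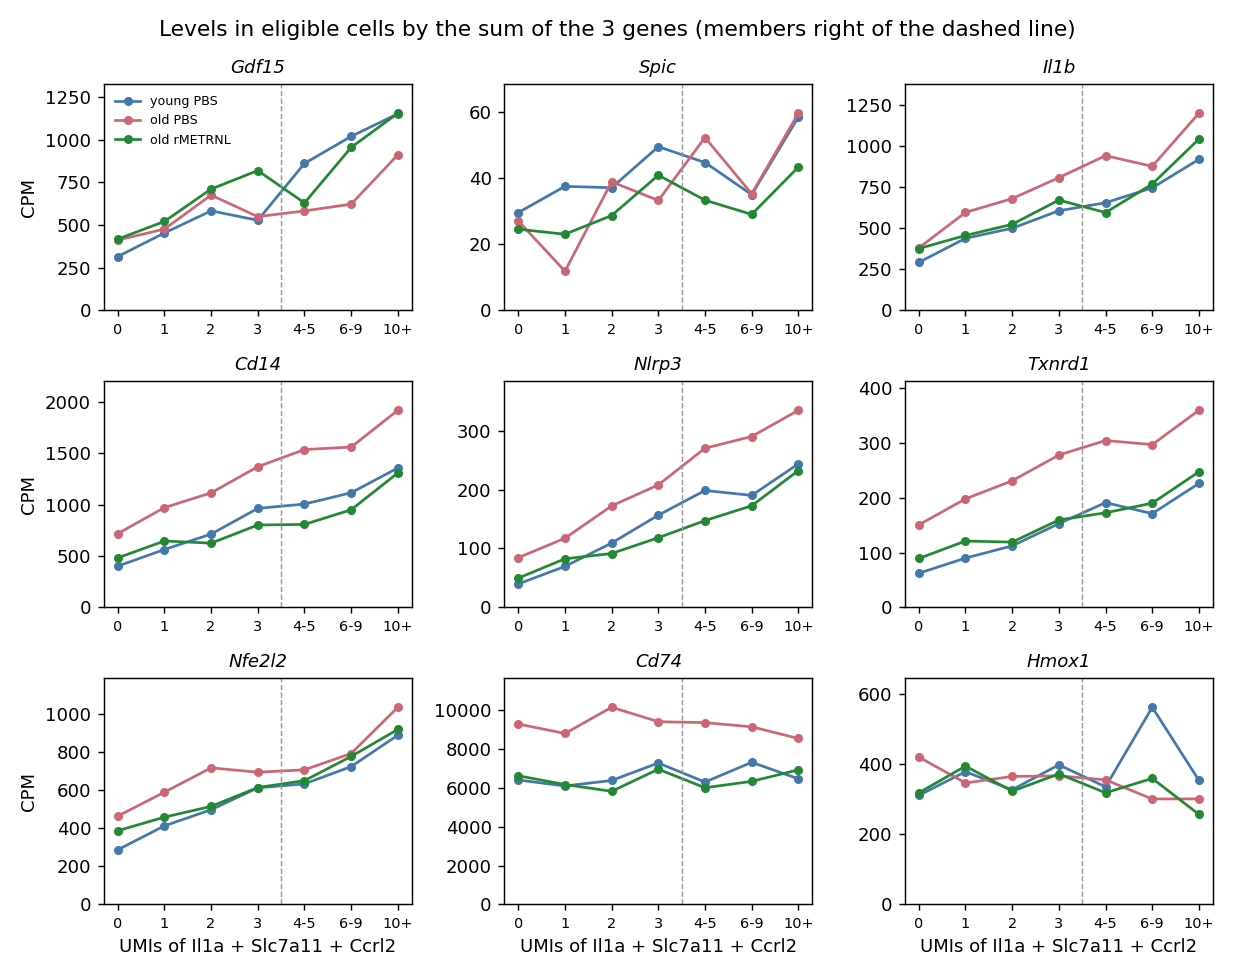
CPM of 9 genes in eligible cells is plotted by the sum of Il1a, Slc7a11 and Ccrl2 UMIs per cell (0, 1, 2, 3, 4 to 5, 6 to 9, 10 or more), with a line for each library. Nlrp3, Il1b, Cd14, Txnrd1 and Nfe2l2 are higher at 10 or more than at 0 in all 3 libraries, whereas Cd74 and Hmox1 are higher in some libraries and lower in others.

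Members led by Slc7a11 differed from those led by Ccrl2. A gene led a member when it had more UMIs than the other 2 together, a split made after values were seen. Ccrl2 led 944, 779 and 693 members (89.1%, 71.9% and 83.5%). Slc7a11 led 62, 173 and 70 (5.85%, 16.0% and 8.43%), and Il1a led 22, 35 and 31. Of 10169 genes, 45 were at least 2-fold higher in Slc7a11-led than in Ccrl2-led members in every library (0.443%) and 21 at least 2-fold lower (0.207%). Dcstamp, which drives fusion of macrophages into giant cells, stood at 24.6, 23.7 and 48.5 CPM in Slc7a11-led and 3.003, 2.96 and 4.92 in Ccrl2-led members. Mmp12, macrophage elastase, stood at 184, 196 and 797 CPM against 39.6, 63.5 and 72.0, and Fn1, fibronectin, at 178, 539 and 743 against 57.1, 100 and 112. Ear2 and F10, a ribonuclease and coagulation factor X, had ratios of 8.31, 6.34 and 5.91 and of 4.74, 3.90 and 4.48.

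Some antioxidant genes were distributed unevenly within members. Of 25 NRF2-linked genes, 16 were above 1 in Slc7a11-led over Ccrl2-led members in every library, beside 2283 of 10169 genes in all (22.5%), and 1, Srxn1, was at least 2-fold higher in each. The split uses UMIs of Slc7a11, itself an NRF2 target, so the count is a description. Hmox1 stood at 1290, 492 and 908 CPM against 365, 283 and 247, Srxn1, sulfiredoxin, at 140, 156 and 86.3 against 32.5, 71.5 and 33.2, and Gclm at 117, 52.7 and 122 against 35.6, 32.4 and 29.97. Nfe2l2 was nearly level, with ratios of 1.07, 1.02 and 1.07. Spic was higher in the Slc7a11-led cells (2.29, 1.88 and 2.52) and Gdf15 lower (0.829, 0.814 and 0.565). None of 25 interferon-stimulated genes was above 1 in every library, and Apoe had ratios of 0.656, 0.627 and 0.504. Slc7a11-led cells number at most 173 in a library, so that a few cells can carry these sums.

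Between libraries, most interferon-stimulated genes differed in members. An age or treatment call needed a ratio of at least 1.5-fold with a 95% interval that left out 1, among 10169 genes with at least 100 UMIs in members. For age, 473 genes were higher in old PBS (4.65%) and 382 lower (3.76%). Without the cells that held 10 or more UMIs of another cell type's markers, 350 were higher and 390 lower. For treatment 405 were higher in old rMETRNL (3.98%) and 269 lower (2.65%). Of 25 interferon-stimulated genes, 20 were lower in old than in young PBS and none higher, with a median ratio of 0.506. In old rMETRNL 16 were higher than in old PBS and none lower, with a median of 1.59. Ifit3, an antiviral effector, stood at 173, 56.6 and 132 CPM in members. Irf7, the factor that amplifies the interferon response, stood at 633, 292 and 448 CPM, and Isg15, a ubiquitin-like protein, at 240, 121 and 221. Old PBS is the low library for each of them. The other gated cells had medians of 0.454 for age and 1.67 for treatment, so the other cells differed in the same direction. Without the cells that held 10 or more UMIs of another cell type's markers, 20 were lower with age and 16 higher with treatment.

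For some attractants and a heat shock gene, too, old PBS was the low library. Of 20 chemokine ligands tested, 4 were lower and 1 higher with age (median ratio 0.969), beside 3.76% and 4.65% of all genes. With treatment 7 were higher and 1 lower, beside 3.98% and 2.65% of all genes. Ccl3 stood at 652, 311 and 502 CPM in members, and Ccl4 at 1002, 449 and 831. Cxcl10, an interferon-induced T cell attractant, stood at 504, 252 and 428 CPM. Hspa1a, the inducible heat shock protein that tissue digestion can raise, stood at 1420, 732 and 1513 CPM in members and at 1372, 651 and 1360 in the other gated cells. For Hspa1a old rMETRNL was the highest library in members, whereas young PBS was highest for the attractants.

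Single antioxidant and protease genes were highest in old PBS. Of 25 NRF2-linked genes, 3 were higher in old than in young PBS, namely Gclc, Srxn1 and Txnrd1, and 2 lower in old rMETRNL than in old PBS, beside 4.65% and 2.65% of all genes. Srxn1 stood at 39.6, 92.5 and 40.5 CPM (age 2.34, 2.13 to 2.56; treatment 0.438, 0.396 to 0.484), and Txnrd1 at 201, 329 and 206. The list's median ratios were 0.939 for age and 1.01 for treatment, close to 1 for both contrasts. Slc7a11 itself, with the rule acting on it, had ratios of 2.56 for age and 0.483 for treatment in members, and of 3.08 and 0.356 in the other gated cells. Mmp19, a matrix metalloproteinase, stood at 45.7, 160 and 77.7 CPM (3.51 for age, 0.485 for treatment), with ratios of 3.16 and 0.403 in the other gated cells. Of 19 protease genes, 10 were higher with age and none lower, beside 4.65% of all genes higher, and 6 were lower with treatment and none higher, beside 2.65% of all genes lower. FAP and tenocyte markers moved the same way in members, with 9 of 10 higher with age and 9 lower with treatment, at medians of 4.90 and 0.272, and 72.3% of their old PBS UMIs lay in 5 cells. Of the protease genes, Mmp13 had 54.4% and Timp1 44.9% of their old PBS UMIs in 5 cells, against 9.27% for Mmp19. Without the cells that held 10 or more UMIs of another cell type's markers, 5 of 17 protease genes were higher with age, and with treatment 3 were lower and 1 higher. Without doublets 8 of 19 were higher with age, and with treatment 3 were lower and 2 higher. The ratio of Nlrp3, which missed the 1.5-fold line for age, was 1.41 (1.36 to 1.48) for age and for treatment 0.612 (0.583 to 0.642), and Cd14 of 1.44 and 0.604.

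For Gdf15 the age ratio lay on opposite sides of 1 in members and in the rest of the gate, a difference that was not tested. In members its ratio was 0.721 for age (0.705 to 0.738) and 1.25 for treatment (1.22 to 1.28), and neither passed 1.5-fold. In the other gated cells the ratios were 1.13 and 1.07. The ratio of Spic was 1.06 for age (0.960 to 1.17) and 0.696 for treatment (0.620 to 0.781). That of Tnf was 1.0006 for age (0.956 to 1.05) and 0.824 for treatment (0.783 to 0.868). Metrnl, which encodes the protein given as treatment, stood at 192, 196 and 191 CPM in members, all within a narrow range.

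**Figure D5:**
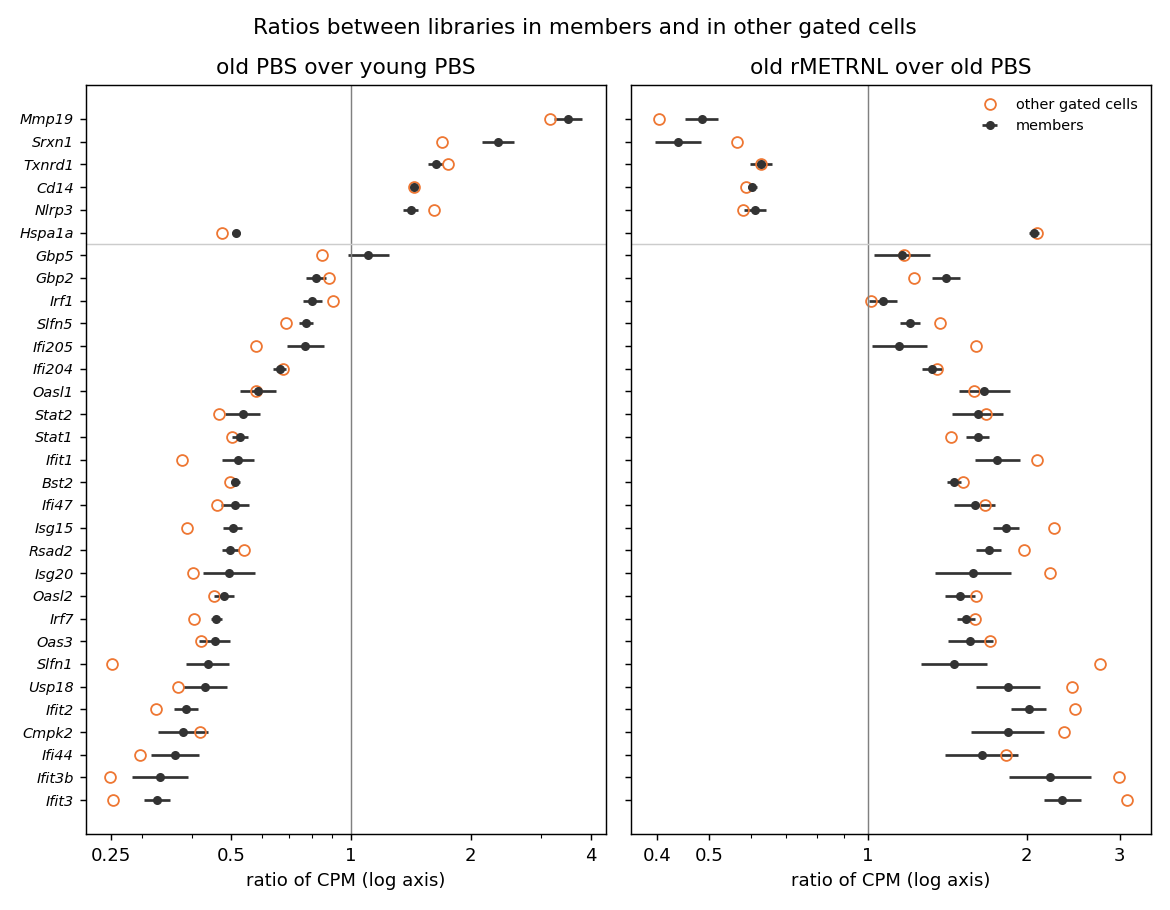
Age (old PBS over young PBS) and treatment (old rMETRNL over old PBS) ratios are plotted on a log axis for interferon-stimulated genes and for Mmp19, Srxn1, Txnrd1, Cd14, Nlrp3 and Hspa1a, in members (filled, 95% intervals of counting error) and in other gated cells (open). Ifit3 lies at 0.327 and 2.33 in members, and Srxn1 on the opposite sides at 2.34 and 0.438.

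Among the 10 highest and 10 lowest ratios of each contrast were many genes of other cells, and several of these rested on few members. For age the top genes included Ankrd23, Car3, Pvalb, Myh4 and Fhl1 of muscle fibres and Fmod, Tnmd, Abi3bp, Prg4 and Dcn of tendon and stroma. Fmod, a tendon proteoglycan, stood at 1.47, 26.2 and 3.01 CPM, with 91.0% of its old PBS UMIs in 5 cells. Transcripts of muscle fibres were spread more widely. A UMI of the muscle marker list was found in 43.4%, 74.8% and 50.2% of members and in 42.6%, 71.7% and 50.2% of the other gated cells, and 30.2% of the list's old PBS UMIs in members were in 5 cells. Of 8 muscle genes tested, 5 were higher with age and 2 lower, beside 4.65% and 3.76% of all genes. Their median age ratio was 2.45 in members and in the other gated cells. With treatment 6 were lower, beside 2.65% of all genes (median 0.405, and 0.809 in the others). Without the cells that held 10 or more UMIs of another cell type's markers, 6 of 7 were higher with age (median 2.83) and 5 lower with treatment (0.544). The globin genes Hba-a1, Hba-a2, Hbb-bs and Hbb-bt led the lower side with 82.9% to 95.5% of young PBS UMIs in 5 cells. With treatment the endothelial genes Sox17, Sox18, Adgrl4 and Myct1 stood higher, with 76.0% to 89.6% of old rMETRNL UMIs in 5 cells. Summed over the FAP and tenocyte marker list, members held 2502, 11578 and 2418 UMIs and a single cell of old PBS held 3690, while Pdgfra was at 0 by the gate. At least 10 UMIs of some other-cell list were found in 37, 71 and 48 members (3.49%, 6.55% and 5.78%) and in 4.48%, 6.15% and 5.999% of the other gated cells. Among myeloid neighbours, the neutrophil list summed to 80.1, 80.9 and 75.7 CPM in members and 64.4, 77.1 and 68.5 in the others, with Ly6g, Camp and Ngp at 0 in members and at most 10 UMIs of the list in any member. The dendritic cell list summed to 22.5, 25.3 and 35.7 CPM against 23.4, 19.3 and 19.8. Scrublet scores called 97, 91 and 60 members doublets (9.15%, 8.39% and 7.23%), beside 8.97%, 9.07% and 9.51% of the other gated cells. The number called in each library was set in advance from its barcodes, so these shares do not estimate how many members are doublets.

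Counting only genes whose 5 leading cells held under 20% of the UMIs in every library, 149 of the 442 named genes higher with age and 235 of the 347 lower remained, and 170 of 375 higher and 70 of 239 lower with treatment. Those described next were taken from this reduced set after values were seen. Higher in old PBS were Ccr1, a receptor for Ccl3, at 29.8, 67.6 and 44.3 CPM, and Pde2a, a cyclic nucleotide phosphodiesterase, at 10.7, 24.4 and 17.7. Lower with treatment were Ahr, the aryl hydrocarbon receptor, at 30.6, 52.4 and 29.6 CPM, and Crem, a cAMP-responsive regulator, at 119, 174 and 98.8. Higher with treatment was Hcar2, the receptor for niacin and hydroxybutyrate, at 12.2, 5.89 and 11.9 CPM. In each of these genes old PBS lay at the extreme of the 3 libraries.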

How the data were processed

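Transcripts of dissociated tibialis anterior cells were counted in 3 droplet single-cell libraries, 1 for each group. The values deposited by the authors were raw UMI counts per gene and barcode, with no normalization, made with Cell Ranger 5.0.0 per the file headers; the submitters' processing notes list versions 5.0.0 and 3.1.0 and build mm10. The files held 32285 features, of which 78 with a repeated symbol were summed by symbol. Coordinates were matched by gene ID to a GRCm38 annotation (99.8% of IDs), and sequences came from RefSeq (GRCm38.p6).

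Barcodes needed 500 genes or more and a mitochondrial share below 10%, and the rule in the report chose the members. Counts were summed over cells per library. Shares had exact Clopper-Pearson intervals, levels exact Poisson intervals and ratios the exact conditional interval, all at 95% and for counting error only. With 1 library per group no test was made. Genes named were the label and rule genes, the 20 highest and 15 lowest called in members, the 10 highest and 10 lowest called in each contrast, and members of 19 gene lists, except for a few genes not reported here; further names were picked after values were seen, as said beside them. Members and lists were chosen with earlier results of these data known. Doublets were scored with Scrublet (0.8% per 1000 barcodes) and removed only as an alternative. Results were recomputed under 13 other settings, and under 2 more chosen after seeing the data. The software was scanpy 1.11.5, pandas 2.3.3, scipy 1.17.1 and numpy 2.4.6 under Python 3.11.15, and the level and ratio functions were tested on simulated data.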

Additional observations from a re-analysis of the deposited data

Results flagged for a closer look

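For some genes and marker lists, members stood above the other gated cells in one library and below them in another by at least 1.5-fold, and these differences between groups were not tested. The ratio of members over other gated cells for Fn1, fibronectin, was 1.66 in old PBS and 0.649 in young PBS, with 23.95% and 27.5% of its member UMIs in 5 cells. For Timp1, an inhibitor of metalloproteinases, it was 1.64 in old PBS and 0.651 in young PBS, with 44.9% and 27.1% of the UMIs in 5 cells. For Timp3, of the same family, it was 1.69 in old rMETRNL and 0.516 in young PBS, with 56.3% and 53.0% in 5 cells. For Saa3, an acute phase protein, it was 1.64 in young PBS but 0.248 in old PBS, with 0.655 after rMETRNL, with 69.6% to 75.0% in 5 cells. The summed FAP and tenocyte list had ratios of 2.32 in old PBS, 0.31 in young PBS and 0.55 in old rMETRNL, and 72.3% of its UMIs in old PBS members were in 5 cells. The summed mast cell and basophil list had ratios of 1.78 in old PBS and 0.287 in young PBS, on 58 and 26 UMIs, of which 28 in old PBS were in 1 cell.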

How the results depend on the processing

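No paired analysis was possible because each group has 1 library, and for the same reason no replicate could be left out. The order of values is young PBS, old PBS, old rMETRNL. The share of the gate was 18.84%, 20.74% and 14.06% with a sum of at least 3, 11.84%, 12.82% and 8.34% with at least 6, and 14.19%, 16.19% and 10.46% after thinning to 5000 UMIs with a sum of at least 2. Requiring 2 of the 3 genes gave 7.09%, 11.8% and 6.171%, with ratios of 1.665 for age and 0.5228 for treatment. Without the 4 exclusions, an alternative added after seeing the data, it was 32.85%, 45.89% and 31.16%, with an age ratio of 1.397. Old rMETRNL stayed the lowest and old PBS the highest under each of these.

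Counts of called genes depended on the settings. Genes higher in members than in other gated cells numbered 34 with 2 of the 3 genes required, 36 under median-of-ratios scaling, 1120 with no minimum beyond 1 UMI and 138 at a fold of 1.5. Genes lower numbered 23 against eligible cells, 443 with no minimum, 145 at 4 times the minimum and 588 at a fold of 1.5. For age, genes higher numbered 858 with no minimum, 174 at 4 times the minimum and 164 at a fold of 2, and genes lower 247 with 2 of the 3 genes required, 192 at 4 times the minimum and 82 at a fold of 2. Under median-of-ratios scaling 415 genes were higher and 440 lower for age. For treatment, genes higher numbered 264 after thinning, 651 with no minimum, 146 at 4 times the minimum and 88 at a fold of 2, and genes lower 514, 98 and 104 under the last 3 of these.

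For lists, the log2 ratio of each gene was averaged over the libraries, and the median over the genes was taken. Lists whose median over other gated cells changed side against eligible cells were NRF2 (0.046), haem and iron (0.029), lipid-associated (0.062), immediate early (-0.105), interferon-stimulated (-0.084) and MHC class II (-0.040). The mean log2 ratio of Aspm over the libraries came to 0.0042. The interferon list was at -0.083 with 2 of the 3 genes required and at -0.015 with the mean of per-cell CPM, where the immediate early list was at -0.052.

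Reversed genes were mostly those of other cells. On the log2 scale, Cdkn1c for age was 0.65 with stricter cell filters, 0.66 without doublets, 0.30 with 2 of the 3 genes required, 0.84 after thinning and 0.58 without cells that held 10 or more UMIs of another cell type's markers (the second alternative added after seeing the data). Without doublets Hbb-bt was -0.21 for treatment. Hbb-bt for treatment was -0.31 with a sum of at least 6. With 2 of the 3 genes required, Hbb-bt was -0.42 and Il1a 0.090 for treatment, and Hba-a2 0.93, Hbb-bs 0.99, Hba-a1 1.13 and Hbb-bt 0.81 for age. After thinning, Fmod was 0.22, Tnmd 3.04, Sox17 -0.094, Akap12 -0.012, Sox18 -0.71 and Adgrl4 -0.048 for treatment, and Myct1 0.062 for age. Without the marker-bearing cells, Fmod was 0.021, Tnmd 0.047, Hbb-bt -0.39, Sox17 -0.039, Sox18 -0.56, Adgrl4 -0.51 and Ackr1 0.12 for treatment, and Hba-a2 0.90, Hbb-bs 0.86, Hba-a1 1.07, Hbb-bt 0.56 and Myct1 0.092 for age. The causes were not tested, except that the last alternative removes by design the cells that held those transcripts. A value could be labelled reversed only where its interval in the main setting left out a ratio of 1. The interferon, NF-kB and antioxidant contrasts between libraries are not among the results that reversed. The antioxidant medians and the NF-kB median for age lay close to 1, so for these the absence of the label says little. Over all alternatives, 1167 values of single genes stayed within their limits, 183 moved and 33 reversed, and for lists the numbers were 646, 10 and 9.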
